A study of Sus scrofa with 17 samples.

Results

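T cells see antigen through the T cell receptor, whose antigen-binding chains cannot signal by themselves and are carried to the cell surface by the CD3 chains and the zeta chain. The coreceptor CD8 binds class I major histocompatibility molecules and brings the kinase LCK to the complex, where LCK phosphorylates the signalling motifs of the CD3 and zeta chains. CD2, CD5 and CD6 are surface glycoproteins that adjust the strength of this signal, and in the heart these genes serve mainly as a readout of resident and infiltrating lymphocytes. The genes described here are the T cell receptor complex and its coreceptors, chosen by symbol as CD3D, CD3E, CD3G, CD247, CD8A, CD8B, CD2, CD5, CD6 and LCK. Of these 10 symbols 9 name a gene in the table of 35670 pig genes, each with 1 entry, and all 9 passed the filter on low counts. CD3G was not analysed here.

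The samples are cardiac tissue of 17 pigs (Sus scrofa), from right ventricles under pressure overload. The multidose group (n = 7) had received umbilical cord blood mononuclear cells (UCB-MNCs) repeatedly into the myocardium, the single dose group (n = 5) had received them as 1 dose, and the vehicle control group (n = 5) had received vehicle. All 3 groups share the pressure load, so no unloaded heart enters any comparison, and each library is a different animal. The labels used here give neither the species of the donor cells, the doses and harvest times, nor the sex, weight and batch of an animal. Besides dosing, the libraries differ in name. The names of multidose 1 to 4 and of single dose 1 begin with M1 (5 libraries), and those of the other 12, all vehicle controls among them, begin with M8 or M9. Names also differ in a suffix _R. Among the M1 libraries multidose 4 alone carries it, and among the M8/M9 libraries all but multidose 5 and vehicle control 3 do. What the names and the suffix stand for is not stated. Totals ran from 21754800 to 61144663 counts. The 4 libraries under 25000000 counts are all M1 libraries without the suffix, so depth and name can hardly be told apart. The suffix is partly mixed with both. The 11 cardiomyocyte markers looked up summed to between 40600 and 75100 CPM (counts scaled to a fixed library size) in every library.

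Several of the 9 genes are neighbours in the pig genome (RefSeq positions on Sscrofa11.1, matched by symbol). CD3E (ENSSSCG00000040140, chromosome 9, 45619730 to 45633972) and CD3D (ENSSSCG00000015093, chromosome 9, 45640475 to 45644153) lie 6502 bases apart. CD8B (ENSSSCG00000008213, chromosome 3, 57968358 to 57986450) and CD8A (ENSSSCG00000008217, chromosome 3, 57999228 to 58029768) lie 12777 bases apart. CD5 (ENSSSCG00000013115, chromosome 2, 10648973 to 10673479) and CD6 (ENSSSCG00000013111, chromosome 2, 10739560 to 10785548) are separated by 66080 bases. CD247 (ENSSSCG00000006309, chromosome 4, 83494266 to 83586887) and CD2 (ENSSSCG00000006736, chromosome 4, 103963802 to 103976971) share a chromosome but are far apart, and LCK (ENSSSCG00000003608, chromosome 6, 88719886 to 88745922) stands alone.

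All 9 genes were scarce in this muscle. The 9 together held between 198 and 2677 counts per library, and their summed level ran from 8.38 CPM in multidose 1 to 46.0 CPM in vehicle control 1. In bulk tissue, fewer T cells and less of these RNAs per cell cannot be told apart. The libraries differed in the same sense for most members. Multidose 1 was lowest of the 17 for every member apart from CD6, which was lowest in multidose 3. Vehicle control 1 was highest for CD3D, CD3E, CD8A, CD8B and LCK, while CD2 was highest in multidose 5, CD247 in single dose 4, CD5 in single dose 3 and CD6 in vehicle control 5. On the mean of the members' standardized log2 CPM, the 6 lowest libraries were the 5 M1 libraries and vehicle control 4. Vehicle control 4 therefore stood apart from its own group. Its 9 members summed to 12.5 CPM, against 27.6 to 46.0 CPM in the other 4 controls, and the same library had the highest sum of 14 macrophage markers of all 17 (784 CPM, against 325 to 698 CPM in the rest). Its part in the results was tested only by leaving it out.

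**Figure D1:**
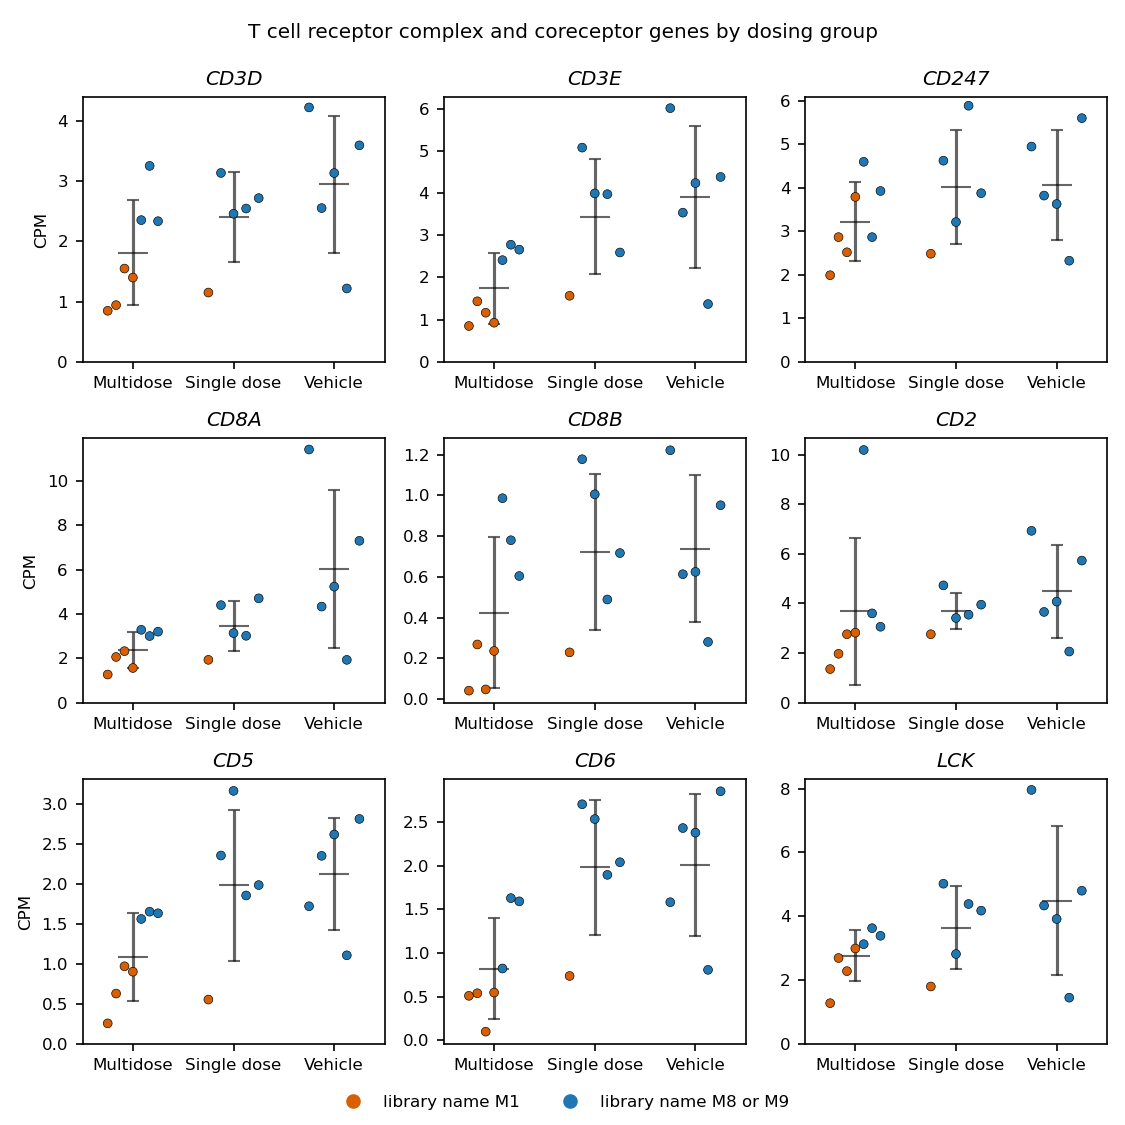
CPM of each of the 9 members in all 17 libraries, 1 panel per gene, with the multidose, single dose and vehicle control groups side by side. Each point is 1 animal, drawn by library name (M1 or M8/M9), and the bars show the group mean and SD. For 7 of the 9 genes every M1 point lies below every M8/M9 point of the dosed animals, and vehicle control 4 lies far below the other controls for most genes.

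Multidose was first set against vehicle control, which addresses what repeated doses of cells do in the loaded ventricle. All 9 members had negative log2 fold changes, with a median of -0.74, against a median of -0.01 and 50.7% negative values over all 15884 genes tested. None of the 9 passed an adjusted p of 0.05 by edgeR's quasi-likelihood test with Benjamini-Hochberg adjustment over all genes, and the share of all genes called lower was 0.0%. At an unadjusted p under 0.05, 4 of the 9 (CD3E, CD8A, CD5 and CD6) were lower, against 5.83% of all genes. DESeq2 and limma-voom called 0 of the 9 as well, with 5 and 7 members lower at an unadjusted p under 0.05. By edgeR that number was 3 to 6 without 1 library (6 without multidose 6 or vehicle control 4), and 1 in the M8/M9 libraries or with the M1 name as a covariate. The 2 groups overlapped for all 9 members, whereas 0.126% of all genes were lower without overlap.

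Among the CD3 and zeta chains, CD3E, which encodes the epsilon chain paired with the delta and gamma chains, ran from 0.847 CPM through a median of 1.43 CPM to 2.78 CPM in the multidose group. In vehicle control libraries 1 to 5 it measured 6.02, 3.54, 4.24, 1.37 and 4.38 CPM. Every multidose library lay below 4 of the 5 controls, and the fifth, vehicle control 4, lay inside the multidose range. Its log2 fold change of -1.15 (SE 0.37) had an adjusted p of 0.366 by edgeR. CD3D, the delta chain gene, ran from 0.847 CPM through 1.55 CPM to 3.26 CPM in the multidose group and measured 4.23, 2.56, 3.14, 1.22 and 3.60 CPM in the 5 controls, a log2 fold change of -0.69 (SE 0.34). CD247, the zeta chain gene, had a smaller value of -0.33 (SE 0.25). Its range was 1.99 to 4.60 CPM (median 2.87 CPM) in the multidose group and 2.32 to 5.61 CPM (median 3.82 CPM) in controls, so the ranges coincided for most libraries, and the value was -0.19 without vehicle control 5.

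The coreceptor genes gave the most negative and one of the least certain values. CD8A, the alpha chain that can form CD8 with itself or with the beta chain, ran from 1.27 CPM through 2.32 CPM to 3.29 CPM in the multidose group. In the 5 controls it measured 11.4, 4.33, 5.24, 1.93 and 7.30 CPM. Again every multidose library lay below all controls but vehicle control 4. CD8A had a value of -1.33 (SE 0.35) with an adjusted p of 0.366 by edgeR, and of -0.96 without vehicle control 1. CD8B, the beta chain that marks conventional cytotoxic T cells, ran from 0.0423 CPM through 0.269 CPM to 0.986 CPM in the multidose group and measured 1.22, 0.613, 0.625, 0.281 and 0.952 CPM in controls. Its log2 fold change of -0.74 had an SE of 0.57, and the gene had 1 to 36 counts per multidose library. Without vehicle control 1 the CD8B value was -0.48.

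Of the signal-adjusting glycoproteins, CD6, a receptor for the adhesion molecule ALCAM, ran from 0.0968 CPM through 0.545 CPM to 1.63 CPM in the multidose group. The 5 controls measured 1.58, 2.43, 2.38, 0.806 and 2.85 CPM. The value was -1.25 (SE 0.46, adjusted p = 0.370 by edgeR). CD5, its neighbour and a brake on receptor signalling, ran from 0.254 CPM through 0.968 CPM to 1.65 CPM in the multidose group, against 1.72, 2.35, 2.62, 1.11 and 2.81 CPM in controls. Here too only vehicle control 4 overlapped the multidose libraries, and the value was -0.94 (SE 0.40, adjusted p = 0.385 by edgeR). CD2, the receptor for the adhesion molecule CD58, had a value of -0.28 (SE 0.39), with 10.2 CPM in multidose 5 and 1.35 to 3.60 CPM in the other 6 multidose libraries, against 2.06 to 6.93 CPM in controls. The CD2 value was -0.77 without multidose 5 and -0.064 without vehicle control 1. LCK, the kinase, had a value of -0.69 (SE 0.33), at 1.27 to 3.62 CPM (median 2.99 CPM) in the multidose group and 1.44 to 7.96 CPM (median 4.33 CPM) in controls. Without vehicle control 1 the LCK value was -0.38.

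The names of the libraries moved with this comparison, since 4 of the 7 multidose libraries and no control are M1 libraries. Within the 12 M8/M9 libraries (3 multidose, 5 controls) the median of the 9 members was -0.40. CD8A was at -0.94 (SE 0.42) and CD3E at -0.59 (SE 0.37) there, while CD2 (0.30) and CD8B (0.08) were positive, all with an adjusted p of 0.999 by edgeR. When vehicle control 1 was left out as well, in a fit chosen after the values were seen, the median of the members was -0.10 and CD8A stood at -0.57 (SE 0.36).

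Single dose was then set against vehicle control. All 9 log2 fold changes were again negative, with a median of -0.18, against 49.6% negative values and a median of 0.0025 over all genes tested. Without single dose 1 the median of the members was 0.001, with 4 of 9 negative. It was -0.069 without vehicle control 1 and -0.095 without single dose 5, and it was -0.36 without single dose 2 and -0.39 without vehicle control 4. By edgeR 0 of 9 passed, as did 0.0% of all genes, and 1 (CD8A) was lower at an unadjusted p under 0.05, against 2.84% of all genes. DESeq2 and limma-voom called 0 of 9 here and in the comparison of the 2 dosed groups. CD8A measured 1.93, 4.40, 3.14, 3.02 and 4.71 CPM in single dose libraries 1 to 5, against 11.4, 4.33, 5.24, 1.93 and 7.30 CPM in controls. The groups overlapped in the range of 1.93 to 4.71 CPM, and they overlapped for the other 8 members too, where 0.453% of all genes were lower without overlap. The value for CD8A was -0.81 (SE 0.38) with an adjusted p of 0.891 by edgeR, -0.67 in the M8/M9 libraries and -0.44 without vehicle control 1. CD3E measured 1.56, 5.08, 3.99, 3.98 and 2.59 CPM after a single dose, with a value of -0.18 (SE 0.40), and single dose 1, the M1 library, was the lowest of the 5. The same library was lowest of its group for all 9 members. The other 8 members had values between -0.30 and -0.01, and in the M8/M9 libraries the median of the 9 was -0.01, with 4 of 9 positive.

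Multidose set directly against single dose gave a median of -0.53 over the members, 8 of 9 being negative, and 0.0018 over all genes, of which 49.5% were negative. No member was lower without overlap, as 0.0315% of all genes were. By edgeR 0 of 9 passed, as did 0.0% of all genes, while 3 of 9 were lower at an unadjusted p under 0.05, against 1.22% of all genes. These were CD6 (log2 fold change -1.24, SE 0.46), CD3E (-0.97, SE 0.37) and CD5 (-0.86, SE 0.41), with an adjusted p of 1.0 by edgeR in every case. The number lower at an unadjusted p under 0.05 was 1 without single dose 2, 1 with the name suffix _R as a covariate, and 0 in the M8/M9 libraries or with the M1 name as a covariate. It was 2 without any 1 of multidose 1 to 4, single dose 3 to 5 or vehicle controls 1, 2, 3 and 5. CD2 stood at 0.004 (SE 0.39) and was negative (-0.49) without multidose 5. In the M8/M9 libraries the median of the members was -0.28. The comparisons of the dosing groups share their libraries, so their values for a gene are not independent of each other.

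**Figure D2:**
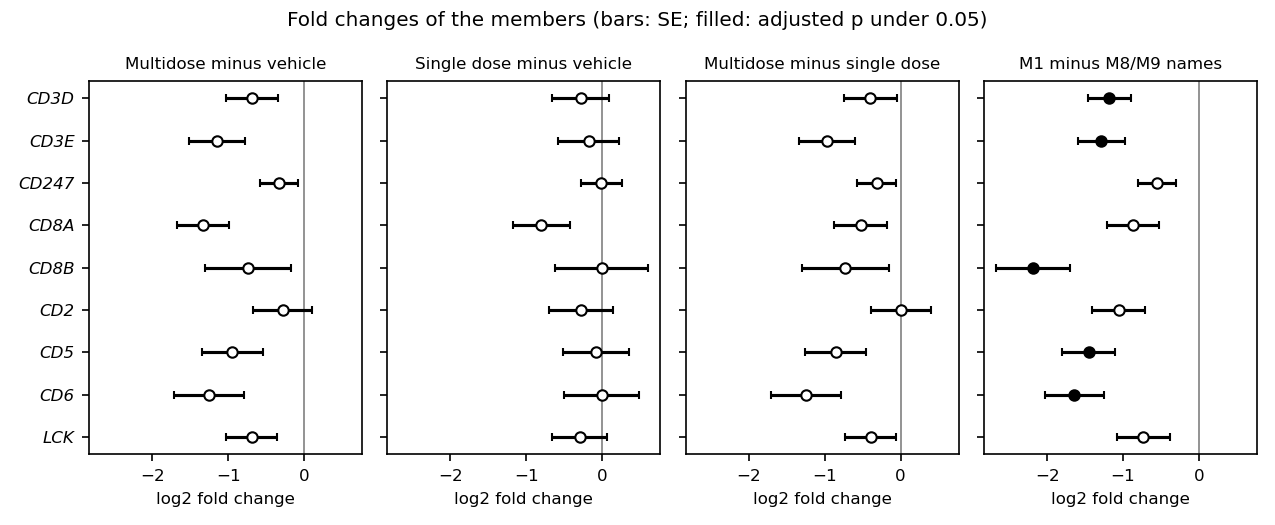
Log2 fold changes of the 9 members with their SE in the 3 dosing comparisons, and in the comparison of library names. Filled points passed an adjusted p of 0.05 by edgeR over all genes, which happened for CD3D, CD3E, CD8B, CD5 and CD6 in the comparison of names and for no member in the dosing comparisons.

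The members also differed by library name. In a fit that held the dosing group constant, so that the names were compared within the multidose group (4 M1, 3 M8/M9) and within the single dose group (1 M1, 4 M8/M9), 5 of 9 members fell in the M1 libraries and none rose. Of all genes 8.06% were called lower and 5.92% higher in the same fit. All 9 log2 fold changes were negative, against 51.4% over all genes, and their median was -1.18, against -0.01. At an unadjusted p under 0.05 by edgeR 8 of the 9 were lower, against 16.4% of all genes. Among the 12 dosed animals, 7 of the 9 members did not overlap between the 5 M1 and the 7 M8/M9 libraries, each being lower in M1, which held for 5.12% of all genes. CD247 and LCK were the exceptions. Since no control is an M1 library, what the names do in vehicle-treated pigs was not tested.

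The CD3 chains fell together. CD3E measured 0.847, 1.43, 1.16 and 0.924 CPM in the M1 libraries of the multidose group and 1.56 CPM in that of the single dose group. The 7 dosed M8/M9 libraries ran from 2.41 CPM through 2.78 CPM to 5.08 CPM. The highest M1 library thus stayed below the lowest dosed M8/M9 library, and CD3E fell by 1.28 (SE 0.31, adjusted p = 0.0131 by edgeR). CD3D measured 0.847, 0.941, 1.55, 1.40 and 1.15 CPM in multidose 1 to 4 and single dose 1, while the dosed M8/M9 libraries ran from 2.34 CPM through 2.55 CPM to 3.26 CPM. Its value was -1.18 (SE 0.28, adjusted p = 0.0131 by edgeR). CD247 ran from 1.99 CPM through 2.52 CPM to 3.79 CPM in M1 and from 2.87 CPM through 3.93 CPM to 5.89 CPM in dosed M8/M9 libraries. Its value of -0.55 (SE 0.26, adjusted p = 0.157 by edgeR) did not pass, and the zeta chain is also used by natural killer cells.

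For CD8 the beta chain gene showed the wider gap. CD8B had 1, 6, 1, 10 and 5 counts in multidose 1 to 4 and single dose 1, and 24 to 57 counts in the 7 dosed M8/M9 libraries. In CPM the M1 libraries measured 0.0423, 0.269, 0.0484, 0.237 and 0.230, and the dosed M8/M9 libraries ran from 0.489 through 0.780 to 1.18. On the log2 scale it fell by 2.18 (SE 0.49, adjusted p = 0.00944 by edgeR). CD8A measured 1.27, 2.06, 2.32, 1.56 and 1.93 CPM in the same M1 libraries, and the dosed M8/M9 libraries ran from 3.005 CPM through 3.203 CPM to 4.71 CPM. No library overlapped, but the value of -0.87 (SE 0.34, adjusted p = 0.0988 by edgeR) did not pass in the fit over all 17 libraries.

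CD5 and CD6 fell as well. CD5 measured 0.254, 0.627, 0.968, 0.901 and 0.552 CPM in multidose 1 to 4 and single dose 1, against 1.56 to 3.16 CPM (median 1.85 CPM) in the dosed M8/M9 libraries. It fell by 1.45 (SE 0.35, adjusted p = 0.0127 by edgeR). CD6 measured 0.508, 0.537, 0.0968, 0.545 and 0.736 CPM in the M1 libraries, against 0.822 to 2.71 CPM (median 1.90 CPM), and fell by 1.64 (SE 0.39, adjusted p = 0.0120 by edgeR). Every M1 library was below every dosed M8/M9 library for both genes. CD2 measured 1.35, 1.97, 2.76, 2.82 and 2.76 CPM in M1 libraries, and 3.06 to 10.2 CPM (median 3.60 CPM) in dosed M8/M9 libraries. Its value of -1.06 (SE 0.35, adjusted p = 0.0519 by edgeR) missed the threshold, and it was -0.55 without multidose 5. LCK had a value of -0.73 (SE 0.35, adjusted p = 0.169 by edgeR), at 1.27 to 2.99 CPM (median 2.28 CPM) in M1 and 2.81 to 5.02 CPM (median 3.62 CPM) in dosed M8/M9 libraries.

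The calls leaned on single dose 1, the M1 library outside the multidose group. Without it CD8B alone passed (adjusted p = 0.0343 by edgeR), and CD3D, CD3E, CD5 and CD6 had adjusted p between 0.0504 and 0.0732 by edgeR with values between -1.64 and -1.15. The other 4 members stood between -1.31 and -0.43. Of all 15884 genes 513 were called lower without single dose 1, against 1280 in the fit over all 17 libraries. Within the 7 multidose libraries alone CD3E passed (-1.26, adjusted p = 0.0445 by edgeR), and all 9 values were negative. There 348 of all 15884 genes were called lower. Within the 12 dosed animals 7 passed, the further 2 being CD8A and CD2, and 1462 of all 15884 genes were called lower. Without the 4 libraries under 25000000 counts, multidose 4 was the only M1 library left. In that fit, chosen after the totals were seen, CD3E stood at -1.49 (SE 0.64) and CD247 at 0.01 (SE 0.45). With 1 M1 library it cannot tell the name from that animal. When all libraries were thinned to the total of the shallowest, 6 members passed, CD2 in addition to the first 5. After thinning 1187 of all 15884 genes were called lower. The values in the multidose and in the single dose group did not differ beyond their error for any of the 9 (interaction term, adjusted p = 1.0 by edgeR for each), but the single dose side rests on 1 M1 library. In vehicle control 4, an M8/M9 library, CD3E (1.37 CPM), CD3D (1.22 CPM) and CD8A (1.93 CPM) lay within the range of the M1 libraries.

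**Figure D3:**
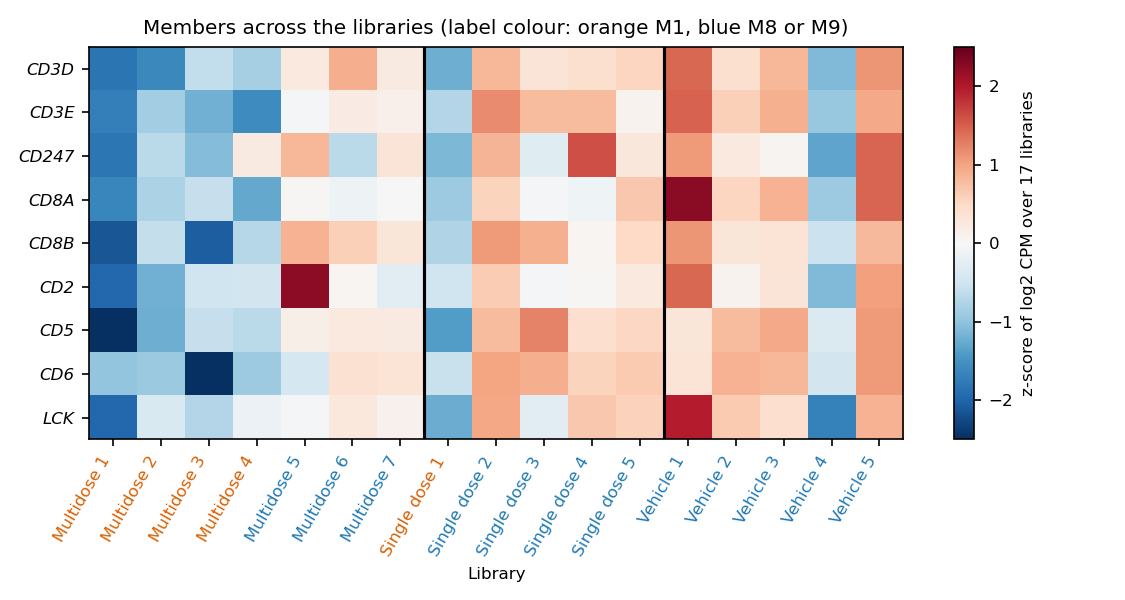
Standardized log2 CPM (z-score per gene over the 17 libraries) of the 9 members, with the libraries arranged by dosing group and name. The 5 M1 libraries and vehicle control 4 show values below the mean for most genes, and vehicle controls 1 and 5 and single dose 2 show values above it.

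Pairs of members were then compared within each library. In differences of log2 CPM between 2 members of the same library the library scaling largely cancels, but the prior count of 2 added before the logarithm pulls values of low-count genes such as CD8B towards each other. Per comparison 9 such differences were tested with an exact two-sided permutation test over libraries. For the names this test took the 12 dosed animals and did not hold dosing constant, as 4 of 5 M1 and 3 of 7 M8/M9 libraries are multidose. CD247 minus CD3E was 1.19, 0.98, 1.09 and 1.98 in the M1 libraries of the multidose group and 0.65 in single dose 1. In the 7 dosed M8/M9 libraries it ran from -0.31 through 0.55 to 0.92. The means were 1.18 ± 0.49 in M1 (SD, n = 5) and 0.32 ± 0.45 in dosed M8/M9 libraries (SD, n = 7), a difference of 0.86 (exact permutation p = 0.00505, adjusted p = 0.0341 over 9 ratios). CD247 was thus less low than CD3E in the M1 libraries, and the groups overlapped in that single dose 1 lay below multidose 5. CD8A minus CD8B was 3.89, 2.74, 4.64 and 2.51 in the M1 multidose libraries and 2.84 in single dose 1, and 1.6 to 2.64 in the dosed M8/M9 libraries. The means were 3.32 ± 0.91 in M1 (SD, n = 5) and 2.07 ± 0.41 in dosed M8/M9 libraries (SD, n = 7), a difference of 1.25 (exact permutation p = 0.00758, adjusted p = 0.0341 over 9 ratios). The highest values, 3.89 and 4.64, belong to the libraries with a single CD8B count. The 5 vehicle controls measured 2.59 to 3.18, inside the M1 range. LCK minus CD3E was higher in M1 by 0.65 (exact permutation p = 0.0253, adjusted p = 0.0758 over 9 ratios) and did not pass. With 12 libraries these calls were fragile, since both ended without any 1 of multidose 1, 2, 3, 4, 6 and 7 or single dose 1, 2 and 3 (adjusted p between 0.0546 and 0.0818, exact permutation). Without single dose 5, 4 of the 9 differences passed.

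Between multidose and vehicle control the same kind of difference was positive for 4 members over CD3E at an unadjusted exact permutation p under 0.05. LCK minus CD3E averaged 0.73 ± 0.47 in multidose libraries (SD, n = 7) and 0.16 ± 0.20 in controls (SD, n = 5), a difference of 0.58 (exact permutation p = 0.0101, adjusted p = 0.0909). CD247 gave 0.82, CD2 gave 0.70 and CD3D gave 0.43, each with an adjusted exact permutation p of 0.0909. All 4 differences share CD3E, so they are not separate results. As 4 of the 7 multidose libraries and no control are M1 libraries, name and dosing are mixed in them. For single dose against control the smallest p belonged to CD8A minus CD8B, at 2.29 ± 0.53 after a single dose (SD, n = 5) and 2.87 ± 0.23 in controls (SD, n = 5), a difference of -0.58 (exact permutation p = 0.0556, adjusted p = 0.429). For multidose against single dose the smallest adjusted exact permutation p was 0.136. No dosing comparison therefore had a difference between members past the threshold.

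**Figure D4:**
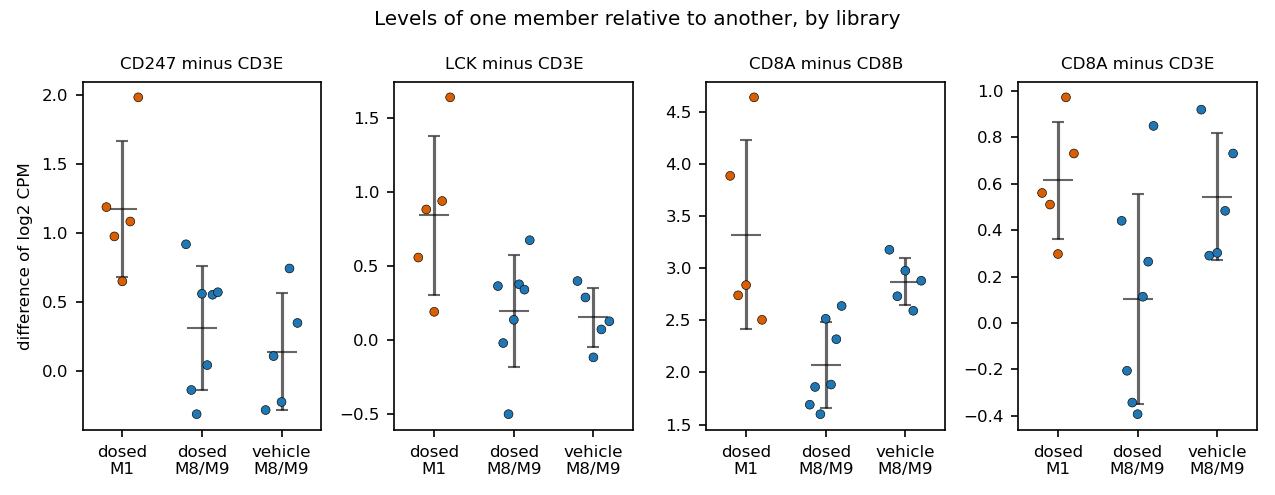
Differences of log2 CPM between members of the same library, by group and library name, with 1 point per animal. CD247 minus CD3E lies between 0.65 and 1.98 in the M1 libraries, and CD8A minus CD8B between 2.51 and 4.64.

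Other genes of T cells were looked up in lists of known function. For the antigen-binding chains themselves no constant region gene could be tested, and CD4, the coreceptor of helper T cells, was the sole gene of that list with a test. CD4, which macrophages of some species also carry, ran from 3.05 CPM through 6.67 CPM to 6.95 CPM in M1. In dosed M8/M9 libraries it ran from 3.74 CPM through 5.96 CPM to 15.99 CPM. Its value was -0.66 (SE 0.39, adjusted p = 0.273 by edgeR), and multidose 5 gave the highest reading. By name 5.92% of all genes were called higher and 8.06% lower. Of 24 genes of T cell receptor signalling downstream of the CD3 chains, 0 rose and 0 fell in M1 (median -0.08). UBASH3A, which dampens the pathway, had a value of -1.23 (SE 0.47, adjusted p = 0.0860 by edgeR) in that list. Of 12 transcription factors of the T lineage 1 fell, RUNX3 (-1.02, SE 0.31, adjusted p = 0.0354 by edgeR), which shapes CD8 T cells. Of 8 ligands and partners of the coreceptors 1 fell. This was CD58 (-0.57, SE 0.13, adjusted p = 0.00995 by edgeR), the ligand of CD2, at 19.5 to 30.6 CPM in M1 and 28.8 to 41.5 CPM in dosed M8/M9 libraries. Neither count of 1 stands clear of the 8.06% of all genes called lower.

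Few genes of lymphocyte homing and of killing passed, beside 8.06% of all genes called lower in M1. Of 18 homing and cytokine receptor genes 2 fell in M1 (median -0.064). They were CCL5 (-1.41, SE 0.36, adjusted p = 0.0172 by edgeR), a chemokine made by activated T and natural killer cells, and IL2RB (-0.76, SE 0.23, adjusted p = 0.0348 by edgeR), an interleukin-2 receptor chain. CCL5 ran from 2.71 CPM through 6.88 CPM to 9.59 CPM in M1 and from 13.5 CPM through 16.2 CPM to 29.5 CPM in dosed M8/M9 libraries, without overlap. Of 12 cytotoxic effectors 1 fell, the granzyme gene GZMH (-1.69, SE 0.26, adjusted p = 0.00145 by edgeR), at 0.847 to 1.35 CPM in M1 and 2.72 to 4.85 CPM in dosed M8/M9 libraries. The interferon gamma gene IFNG stood at -1.93 (SE 0.63, adjusted p = 0.0502 by edgeR) on very few counts. Of 6 natural killer cell receptor and adaptor genes 2 rose and 0 fell, beside 5.92% of all genes called higher, and the summed level of that list overlapped, at 33.7 to 45.1 CPM in M1 and 25.8 to 44.1 CPM in dosed M8/M9 libraries. NCR1, an activating receptor, had a value of 1.93 (SE 0.51, adjusted p = 0.0211 by edgeR), at 0.254 to 1.06 CPM in M1 and 0.0612 to 0.372 CPM in dosed M8/M9 libraries. KLRB1, a lectin-like receptor of natural killer and some T cells, had a value of 1.68 (SE 0.50, adjusted p = 0.0340 by edgeR). Of 6 genes in a list of inhibitory T cell receptors and the related receptor CD226, 0 rose and 0 fell (median -0.59).

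Markers of other cells were set beside these values, with 5.92% of all genes called higher in M1 and 8.06% lower. Over 11 markers shared by all leukocytes 0 rose and 0 fell (median -0.03), and their sum ran from 161 to 240 CPM in M1 and from 159 to 246 CPM in dosed M8/M9 libraries. Of 14 macrophage markers 0 passed in either direction. Of 11 B and plasma cell markers 1 rose, near the share over all genes, namely BANK1 (0.88, SE 0.23, adjusted p = 0.0201 by edgeR). Of 10 fibroblast markers 4 rose and 0 fell, among them the receptor gene PDGFRA (1.25, SE 0.24, adjusted p = 0.00476 by edgeR). The fibroblast sum ran from 4847 to 8750 CPM in M1 and from 3028 to 6833 CPM in dosed M8/M9 libraries. Of 4 red cell markers 1 rose and all had positive values (median 1.79). The red cell sum ran from 96.8 CPM through 362 CPM to 638 CPM in M1, against 25.9 CPM through 91.1 CPM to 188 CPM in dosed M8/M9 libraries, and it was also high in vehicle controls 1 (505 CPM) and 4 (385 CPM). The part of these other cells in the members' values was not tested. The remaining lists had 0 or 1 gene called in each direction.

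**Figure D5:**
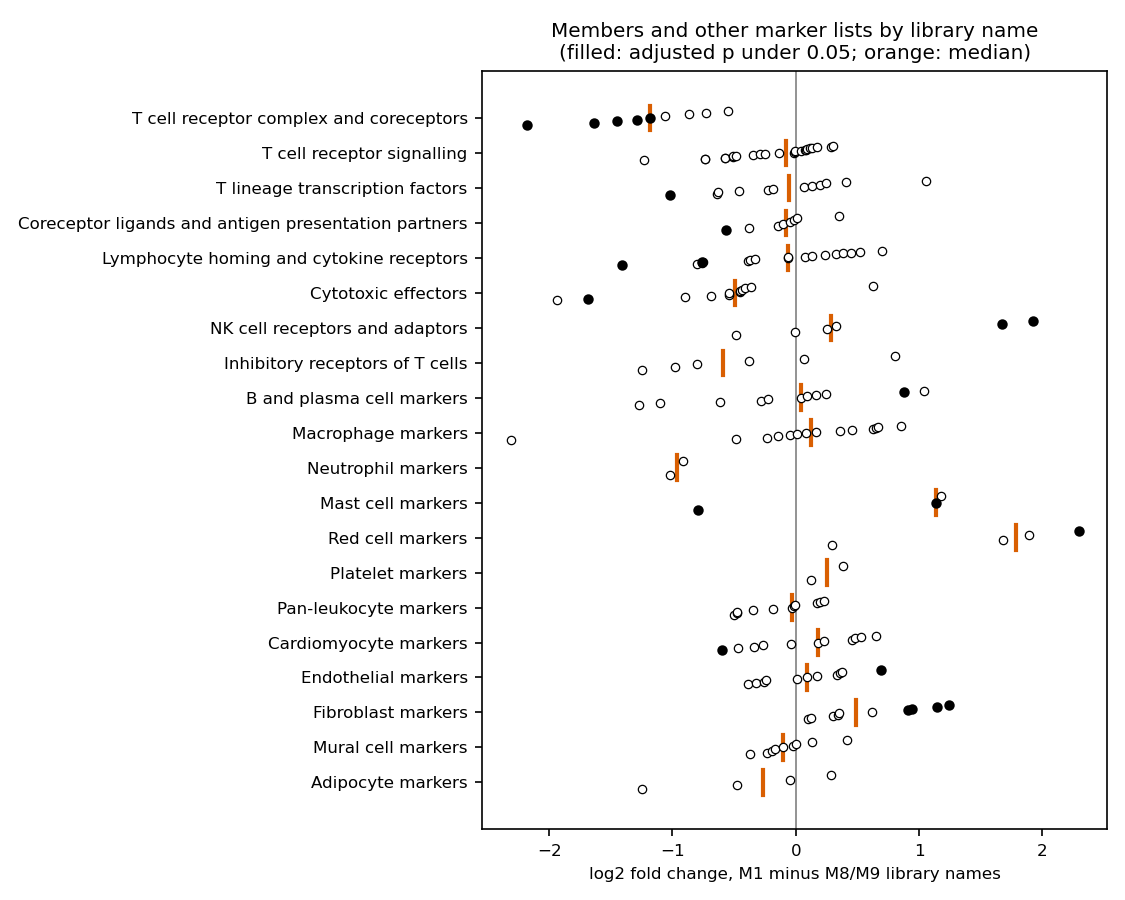
Log2 fold changes of the genes in each list between M1 and M8/M9 libraries, 1 row per list, with points for single genes and a mark for the median. The median of the receptor complex and coreceptor genes lies at -1.18 and that of the markers shared by all leukocytes at -0.03.

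In the dosing comparisons 0 genes of the 20 further lists passed by edgeR, as did 0.0% of all genes. After multiple doses 21 of 24 signalling genes had negative values (median -0.46, with PRKCQ at -0.83 and SLA2 at -0.86), as did 14 of 18 homing and cytokine receptor genes (median -0.55) and 11 of 12 cytotoxic effectors (median -0.65). Of the leukocyte markers 10 of 11 were negative (median -0.27), and of the mural cell markers 8 of 9 (median -0.25). Other lists were more evenly split, with 7 of 12 T lineage transcription factors (median -0.28) and 3 of 6 natural killer cell genes (median -0.15) negative. So were 7 of 14 macrophage markers (median 0.01) and 4 of 11 B and plasma cell markers (median 0.15). CD4 stood at -0.01 (SE 0.38). Over all genes 50.7% had negative values in that comparison. After a single dose the medians were -0.13 for signalling and -0.29 for homing and cytokine receptor genes, and 11 of 12 cytotoxic effectors were negative with a median of -0.37, against 49.6% negative over all genes. Vehicle control 1 had the highest sum of all libraries for signalling (255 CPM), homing (299 CPM) and cytotoxic genes (97.8 CPM). The other controls measured 155 to 192, 164 to 198 and 22.3 to 55.0 CPM. Of the 7 multidose libraries 4 are M1 libraries and no control is, so name and dosing are mixed here too. These lists were not examined without vehicle control 1 or in M8/M9 libraries alone.

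The members varied together from animal to animal. Over the 12 M8/M9 libraries, taken alone because members differed by library name, Pearson's r ran from -0.04 to 0.92 over the 36 pairs of members, with a median of 0.60. CD3D and CD3E had r = 0.85 (rank correlation rho = 0.75) and CD3D and LCK 0.92 (rho = 0.78). CD2 and CD6 had the lowest r, -0.04 (rho = 0.17), with multidose 5 far above the rest for CD2. The 12 libraries include vehicle controls 1 and 4, which had the highest and lowest summed level of the members among them. These values are descriptions over libraries that also share the state of the tissue and the scaling. Among 12853 other genes with a symbol, the one whose log2 CPM was most like the mean standardized level of the members over all 17 libraries was MYO1G, a myosin of blood cells (r = 0.97, rho = 0.95, and r = 0.92 in the 12 M8/M9 libraries). It was followed by CXCL9 (r = 0.93), an interferon-induced chemokine gene, SPN (r = 0.93), which encodes the leukocyte sialoprotein CD43, and CCL5 (r = 0.92). PVRIG (r = 0.92), an inhibitory receptor gene, GZMH (r = 0.92), RUNX3 (r = 0.91) and TONSL (r = 0.90), a DNA repair gene, completed the 8 most alike. In the M8/M9 libraries alone r was between 0.69 and 0.87 for these 7 genes.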

How the data were processed

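The deposited table holds raw counts per gene, whole numbers made by the authors from reads of 17 libraries, 1 animal each. Per the submitters' processing notes, which give no roles, the build was Sscrofa11.1 and the tools were HISAT2 2.1.0, Subread 1.6.2, SAMtools 1.7, Trimmomatic 0.33 and FastQC 0.11.7. Neither those notes nor the labels give the strand setting or annotation release, so reads of overlapping genes may be shared. RNA was extracted with TRIzol and sequenced on an Illumina NextSeq, per the labels. Groups come from the sample titles and name classes from the library names.

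The analysis used edgeR 4.0.16 in R 4.3.3, with filterByExpr (15884 of 35670 genes kept, 10374 had no count), TMM scaling, 1 quasi-likelihood fit over all 17 libraries with robust spread and a mean per dosing group, and for the names an added M1 term. Tests were two-sided with Benjamini-Hochberg adjustment over all genes and a threshold of 0.05. CPM are TMM-scaled, and log2 CPM carries a prior count of 2. SE were derived from the fold change and F statistic. Differences between members were tested by exact permutation in Python 3.11.15 (scipy 1.17.1). No transcript lengths were at hand, so levels were not compared between genes.

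The members and lists were chosen with earlier results of these data known. All members are named, with the 2 genes of smallest p per list in 2 comparisons (described in part, and 1 of them not reported here) and the 8 genes most alike. Alternatives were other scalings and filters, no robust spread, DESeq2 1.42.0, limma-voom with quality weights (limma 3.58.1), covariates (name suffix _R, M1 name), a replicate block, no dosing term, fewer libraries (M8/M9, compared groups, multidose, dosed), thinning to 21754800 counts and each library left out. Fits without the 4 libraries under 25000000 counts, and without vehicle control 1 among M8/M9 libraries, were added after seeing the data. The pipeline was tested on simulated data. The p-values measure spread between animals, and counts limit their precision: CD8B rests on as little as 1 count.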

Additional observations from a re-analysis of the deposited data

Results flagged for a closer look

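In single dose 1, CD3D stood at 0.26 log2 CPM and CD6 at -0.35 log2 CPM, each far below the other 4 single dose libraries by Dixon's criterion at 95%. Single dose 1 is the M1 library of that group. In all 27 sets of values (9 members in 3 groups) were examined, and chance alone marks about 1 in 20 sets.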

How the results depend on the processing

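Genes called between multidose and vehicle control numbered 8 by DESeq2 and 1 with a replicate block, against 0. Between single dose and control DESeq2 called 10, and fits without 1 library 0 to 1, against 0. By name 2220 genes were called, against 4525 by limma-voom, 11 with the replicate block, 3783 without a dosing term, 666 in multidose libraries, 879 to 2750 without 1 library (879 without single dose 1, 1244 without multidose 6 and 1451 without multidose 5) and 11 without the 4 libraries under 25000000 counts. Members called lower by name numbered 5, against 0 with the replicate block, 9 without a dosing term, 1 in multidose libraries, 1 to 7 without 1 library and 0 without the 4 shallow libraries. Differences between members past the threshold by name numbered 2, and 0 to 4 without 1 library. Whether the replicate numbers pair animals is not stated in the labels. Over the 15 same-number pairs of libraries the correlation of deviations ran from -0.22 to 0.41, with 4 pairs over 0.1. Over the 80 other pairs it ran from -0.51 to 0.51, and these values cannot settle the pairing.

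No member passed in any setting of a dosing comparison, whether or not its value turned sign. Some of the members' dosing values turned sign, not all of them near 0. For multidose against control they were CD8B (0.039) and CD2 (0.18) with the M1 covariate, CD8B (0.082) and CD2 (0.30) in M8/M9 libraries, CD2 (0.12) without the 4 shallow libraries, and CD3D (0.011), CD8B (0.35) and CD2 (0.52) without vehicle control 1 among M8/M9 libraries. For single dose against control they were, by limma-voom, CD3E (0.027), CD8B (0.18), CD5 (0.050) and CD6 (0.12), and with upper-quartile scaling CD247 (0.015), CD8B (0.013) and CD6 (0.021). With the replicate block CD6 stood at 0.001. With the M1 covariate CD247 stood at 0.069, CD8B at 0.24, CD5 at 0.055 and CD6 at 0.19. In M8/M9 libraries CD247 stood at 0.11, CD8B at 0.19, CD5 at 0.14 and CD6 at 0.19. Without the 4 shallow libraries CD3E stood at 0.001, CD247 at 0.12, CD8B at 0.20, CD5 at 0.14 and CD6 at 0.19. Without vehicle control 1 among M8/M9 libraries CD3D stood at 0.046, CD3E at 0.21, CD247 at 0.19, CD8B at 0.45, CD2 at 0.009, CD5 at 0.070, CD6 at 0.11 and LCK at 0.18. Leaving out 1 library gave -0.39 to 0.036 for CD3E, -0.19 to 0.13 for CD247, -0.25 to 0.25 for CD8B, -0.31 to 0.14 for CD5, -0.21 to 0.19 for CD6 and -0.52 to 0.018 for LCK. For multidose against single dose CD2 turned to -0.043 with upper-quartile scaling, -0.001 without a filter, -0.008 with a minimum of 1 CPM in 5 libraries, -0.50 by limma-voom, -0.020 with the suffix covariate, -0.22 with the replicate block and -0.072 after thinning, and ran from -0.49 to 0.14 without 1 library. By name CD247 turned to 0.010 without the 4 shallow libraries. Where no library was left out, the cause was not tested. The filter of at least 1 CPM in 5 libraries removed CD8B, so it has no value in that setting.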
